A study of Rattus norvegicus with 9 samples.

Results

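The cytosolic ribosomal protein genes were taken from both deposited tables of ileum RNA by their symbols: Rpl or Rps followed by a digit, the stalk genes Rplp0, Rplp1 and Rplp2, and Rpsa. The kinases whose symbols start with Rps6k and the symbols that carry "-ps" were left out. This gave 84 of the 17145 genes listed in each table: 43 of the large subunit, 31 of the small subunit, 3 of the stalk, 6 paralogues (Rpl3l, Rpl22l1, Rpl36al, Rpl39l, Rps4y2 and Rps27l) and Rps19bp1, which fits the symbol rule but encodes a protein that binds Rps19 and is no part of the ribosome. Fau, whose product is a ubiquitin-like protein fused to a ribosomal protein, lies outside the rule and is given separately.

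All animals were Otsuka Long-Evans Tokushima fatty (OLETF) rats, an obese and diabetic strain without a working receptor for the gut hormone cholecystokinin, so no lean or non-diabetic animal stands beside the groups. Ileum was taken 1 month after the operation. This was Roux-en-Y bypass of the stomach (RYGB), which leads food past most of the stomach and the duodenum, or, for the controls, a sham operation, for which the labels state the same time. The RYGB samples are labelled FDG decreased or FDG increased, and the labels spell out neither the abbreviation nor what was measured. Each of the 3 groups has 3 libraries of total RNA depleted of ribosomal RNA, and the labels do not say whether they came from separate animals, so every p-value measures the spread between these libraries, which may be technical.

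Values are FPKM, fragments scaled to the length of the transcript and to the size of the library. The authors scaled the tables separately. One table, called the sham table here, holds FDG-increased RYGB ileum and sham ileum. The other, called the RYGB table, holds FDG-decreased and FDG-increased RYGB ileum. FDG-increased libraries 2 and 3 of the sham table are FDG-increased libraries 1 and 2 of the RYGB table multiplied by 1.023 and 1.0204, so 10 different libraries stand behind the 12 columns, and 4 of these are FDG-increased where the labels name 3. Summed FPKM per library lay between 465697.5 and 864510.6, and 10332 to 10892 genes reached 1 FPKM. Read depth is unknown. Sham library 1 stood apart: Fabp6, the ileal bile acid binding protein, was at 22.6 FPKM there against 8375 and 11347 in the other sham libraries, and lactase (Lct), a gene of the upper intestine, was at 253 FPKM against 8.60 and 0.317.

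Ribosomal proteins assemble with ribosomal RNA into a small subunit, which decodes the message, and a large subunit, which joins amino acids; the stalk of the large subunit recruits the elongation factors. Their mRNAs are among the most abundant in most cells. Many begin with a 5′ terminal oligopyrimidine (TOP) tract, a C followed by a run of C and T at the start of transcription, through which the mTORC1 pathway sets how much of them is translated. In the intestine, protein synthesis is high because the epithelium is renewed from the crypts throughout life.

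The start sites of 12 members are shown, which differ in the run of C and T near the annotated start. They include the 4 genes with the largest FDG-increased minus sham differences (Rpl35, Rps26, Rpl31, Rpl34) and 3 of the most abundant (Rplp1, Rpl37a, Rpl41). The others are both members of the pairs Rpl22 and Rpl22l1 and Rps4x and Rps4y2, and Rps19bp1. Sequences are from RefSeq on GRCr8, on the coding strand, from 30 bases before the annotated start to 25 bases from it on, so the last 25 bases are transcribed. Capitals mark the longest unbroken run of C and T in the window.
Rpl35, chr3:43165897-43165951, minus strand: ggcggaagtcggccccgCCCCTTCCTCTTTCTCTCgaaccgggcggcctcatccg
Rps26, chr7:1643380-1643434, minus strand: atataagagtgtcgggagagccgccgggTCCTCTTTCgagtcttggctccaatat
Rpl31, chr9:49143081-49143135, plus strand: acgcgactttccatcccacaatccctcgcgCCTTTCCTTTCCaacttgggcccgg
Rpl34, chr2:221962259-221962313, minus strand: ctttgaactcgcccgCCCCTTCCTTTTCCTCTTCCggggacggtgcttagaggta
Rplp1, chr8:71290848-71290902, minus strand: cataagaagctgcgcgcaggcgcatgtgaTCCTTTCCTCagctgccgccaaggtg
Rpl37a, chr9:81748061-81748115, plus strand: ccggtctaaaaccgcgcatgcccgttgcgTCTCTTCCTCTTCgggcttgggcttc
Rpl41, chr7:1563473-1563527, minus strand: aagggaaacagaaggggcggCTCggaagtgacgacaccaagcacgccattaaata
Rpl22, chr5:168117931-168117985, plus strand: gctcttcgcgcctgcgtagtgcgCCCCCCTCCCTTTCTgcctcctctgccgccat
Rpl22l1, chr2:113683166-113683220, plus strand: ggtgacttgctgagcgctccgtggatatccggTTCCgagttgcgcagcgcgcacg
Rps4x, chrX:71342897-71342951, minus strand: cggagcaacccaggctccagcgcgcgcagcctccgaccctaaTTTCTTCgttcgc
Rps4y2, chr4:183000883-183000937, plus strand: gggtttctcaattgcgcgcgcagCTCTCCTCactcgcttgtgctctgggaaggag
Rps19bp1, chr7:113692999-113693053, minus strand: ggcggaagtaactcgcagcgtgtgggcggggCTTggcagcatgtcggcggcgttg
The runs in the Rpl35, Rps26, Rpl31 and Rpl34 windows had 18, 9, 12 and 20 bases. They began at positions -13, -2, 1 and -15, where 1 is the first transcribed base. Most of the Rpl35 and Rpl34 runs thus lay before the annotated start, so their lengths are not those of a TOP tract. The windows of Rpl41, Rpl22l1 and Rps19bp1 held no run longer than 4 bases. Rpl22 had a run of 15 bases and its paralogue Rpl22l1 one of 4.

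A promoter entry was found for 67 of the 84 members, with 68 start sites. A run of 8 or more C or T within 25 bases of the start was present at 53 of the 68 (77.9%), against 19.4% of all 33469 rat promoters in the table. The first transcribed base was C at 35 of the 68 (51.5%), against 24.1% of all promoters. In the whole 300-base promoters, CCGGAA, a core that ETS-family factors bind, was present on either strand in 34 of the 68 (50%) against 15% of all. In 7 (10.3%, against 0.266% of all) it overlapped the longest run, counted only where that run had 8 or more bases. Such an overlap needs both the run and the core, and each was more frequent among the members. TATAAA, the TATA box, was present on either strand in 8 (11.8%) against 14.2% of all. These are matches of letters, without a test, and the tables hold no measure of transcription start or translation to set beside them.

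A gene was tested in a table when its mean there reached 1 FPKM, and 76 of the 84 members did so in each table. They were far up the distribution: the median member lay between percentiles 98.9 and 99.2 of the genes tested in each library. In both tables the highest means were those of Rplp1, a stalk protein, Rpl41, a very short and basic protein of the large subunit, Rps29, Rpl37a and Rps27. Rplp1 averaged 3499.9 FPKM over the sham table and 3669 over the RYGB table. Rpl41 averaged 3217 and 3242.5 FPKM. At the low end of those tested were the paralogue Rps4y2 with 12.5 and 7.24 FPKM, and Rps19bp1 with 12.95 and 13.7 FPKM. The RNA is from whole tissue, where fewer cells of a type and less RNA per cell cannot be told apart.

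The 8 members below that level were Rpl7a, Rpl8, Rplp2, Rps6, Rps9, Rps19, Rpl3l and Rpl39l. Rpl7a, Rpl8, Rplp2, Rps6 and Rps9 were listed at 0 in all 12 columns. These are ribosomal proteins that every cell uses: Rps6 is the substrate of the S6 kinases and Rplp2 is the partner of Rplp1 in the stalk. A value of 0 for them is therefore how the table lists the gene and no measure of its level. Rps19, which every ribosome also needs, was listed at 1.08, 0 and 0.579 FPKM in the FDG-increased and at 0, 0.233 and 0.297 FPKM in the sham libraries. RefSeq lists numbered copies, mostly pseudogenes, of 79 of the 84 members, 1102 copies in all with a median of 13.5 per member and a maximum of 36 for Rps2. Among the members near 0, Rpl3l and Rpl39l have 0 copies, Rplp2 5, Rpl8 6, Rps6 11, Rps9 17, Rps19 20 and Rpl7a 21. These counts lie on both sides of the median of 13.5. Rps2 and Rps27a, with 36 and 29 copies, averaged 1477.5 and 1485.8 FPKM over the sham table. Only 1 of the 1102 copies has a row in the tables. Reads shared with such copies could be split or dropped in counting, so the level of any single member is uncertain, and the part of the copies in the values at 0 was not tested. Rpl3l, the muscle form of Rpl3, did not exceed 0.201 FPKM in any library. Rpl39l was listed at 0 except in sham library 1, with 2.21 FPKM.

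**Figure D1:**
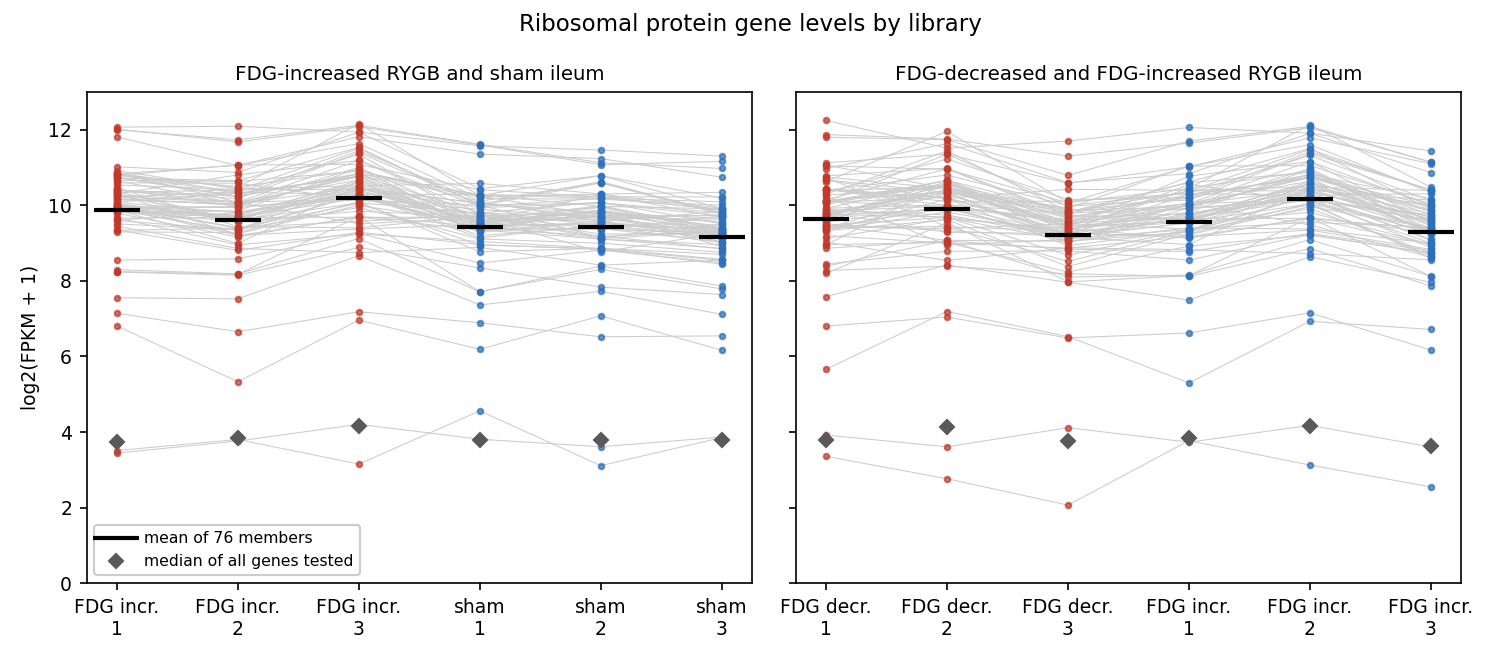
Levels of the 76 tested members in each library, as log2(FPKM + 1), in the sham table (left) and the RYGB table (right). Each point is a gene, grey lines join a gene across libraries, the black bar is the mean of the members and the diamond the median of all genes tested; the members' mean lies between 9.16 and 10.20 and the gene median between 3.64 and 4.16.

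In FDG-increased RYGB ileum against sham ileum, no ribosomal protein gene passed the test. Most had higher fitted values in the FDG-increased libraries, 74 of the 76 tested (64.7% of all genes), by a median of 0.55 on the log2(FPKM + 1) scale. Here and below, groups were compared with limma on that scale, with Benjamini-Hochberg adjustment over all 10801 genes tested and a threshold of 0.05. By limma 0 of the 76 members were called, against 4 genes in all (0.037%). At an unadjusted p under 0.05 there were 12 members higher (664 of all genes, 6.15%) and 0 lower (1.69% of all genes). The smallest adjusted p of a member was 0.512, for Rps26.

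The 4 largest differences were those of Rpl35, Rps26, Rpl31 and Rpl34. Rpl35, of the large subunit, was at 1265, 1789.9 and 2333 FPKM in the FDG-increased libraries and at 887, 839 and 758 FPKM in the sham libraries. Every FDG-increased library was above every sham library. The fitted difference was 1.07 (SE 0.34), a 2.11-fold ratio, with an adjusted p of 0.517 by limma. Rps26, of the small subunit at the exit of the mRNA channel, was at 1822, 2139 and 3178.5 FPKM against 1161, 1146 and 1024 FPKM, again without overlap. Its difference was 1.06 (SE 0.33).

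Rpl31 was at 1689, 1608.5 and 2960 FPKM in the FDG-increased libraries and at 1019, 1072 and 891 FPKM in the sham libraries. Rpl34 was at 1084, 1281 and 1715 FPKM against 685, 735 and 651 FPKM. The groups of both genes stood apart. Their differences were 1.01 (SE 0.35) for Rpl31 and 0.95 (SE 0.32) for Rpl34, and in all 4 genes FDG-increased library 3 held the highest value.

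At the other end, Rps4y2 was at 10.4, 12.96 and 7.89 FPKM in the FDG-increased libraries and at 22.6, 7.64 and 13.5 FPKM in the sham libraries, a difference of -0.35 (SE 0.38). Sham library 1 held the highest value, and without it the difference was 0.0061. Rpl22l1 was at 111, 39.3 and 124 FPKM against 72.0, 134 and 70.7 FPKM, a difference of -0.11 (SE 0.49). These 2 paralogues were the members with lower fitted values, and their groups overlapped. The next lowest were Rps19bp1 at 0.04 (SE 0.27), Rpl3 at 0.15 (SE 0.32) and Rps23 at 0.20 (SE 0.34).

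By role, all 41 tested genes of the large subunit had a positive difference, with a median of 0.58. So did all 28 of the small subunit, with a median of 0.52, and both stalk genes. Rplp0, the base of the stalk, was at 1862, 1299.8 and 1253 FPKM against 1247, 1165.5 and 1092 FPKM, a difference of 0.31 (SE 0.31). Rplp1 was at 4299.5, 4370.1 and 3928 FPKM against 3049.5, 2824 and 2529 FPKM, a difference of 0.59 (SE 0.29). The groups of both stalk genes did not overlap, those of Rplp0 by a narrow margin.

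Rpsa, which is both a protein of the small subunit and the laminin receptor, was at 1349, 1083 and 1144 FPKM against 951, 811 and 793 FPKM, a difference of 0.48 (SE 0.30). Rpl5 and Rpl11, which with 5S RNA bind the p53 regulator Mdm2 when ribosome assembly is disturbed, gave 0.65 (SE 0.36) and 0.81 (SE 0.33). Rps27a, which is made as a fusion with ubiquitin, gave 0.52 (SE 0.41). The groups of Rpsa, Rpl5 and Rpl11 did not overlap, and those of Rps27a did. Outside the symbol rule, the fusion gene Fau gave 0.42 (SE 0.35).

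The groups did not overlap, with FDG-increased higher, for 34 of the 76 members, while this held for 1153 of all genes (10.7%). They were 21 of the large subunit, 11 of the small subunit and both stalk genes. In the opposite direction there were 0 members (480 of all genes, 4.44%). The median difference of all genes tested was 0.13, so the libraries as deposited were not centred on each other. Shifting the libraries to one median left 73 of 76 members with a positive difference (50.2% of all genes), a median of 0.42 against 0.0017 for all genes, and 22 members without overlap (8.2% of all genes). Quantile normalization, which gives every library the same distribution of values, left 37 members higher (46.9% of all genes) and 39 lower, a median of -0.02, and 5 members without overlap: Rpl11, Rpl31, Rpl34, Rpl35 and Rps26 (7.19% of all genes). Shifting the libraries to one upper quartile left 67 members higher (3883 of all genes), with a median of 0.29 against -0.13 for all genes. The family as a whole was thus higher under the shifts and on neither side after quantile normalization. The members lie at the top of each distribution, where that scaling removes a shift that abundant genes share. The groups of Rpl11, Rpl31, Rpl34, Rpl35 and Rps26 (6.58% of members) stood apart as deposited, after the median shift and after quantile normalization. So did those of 574 of all genes (5.31%), so the share among the members was near that of all genes.

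**Figure D2:**
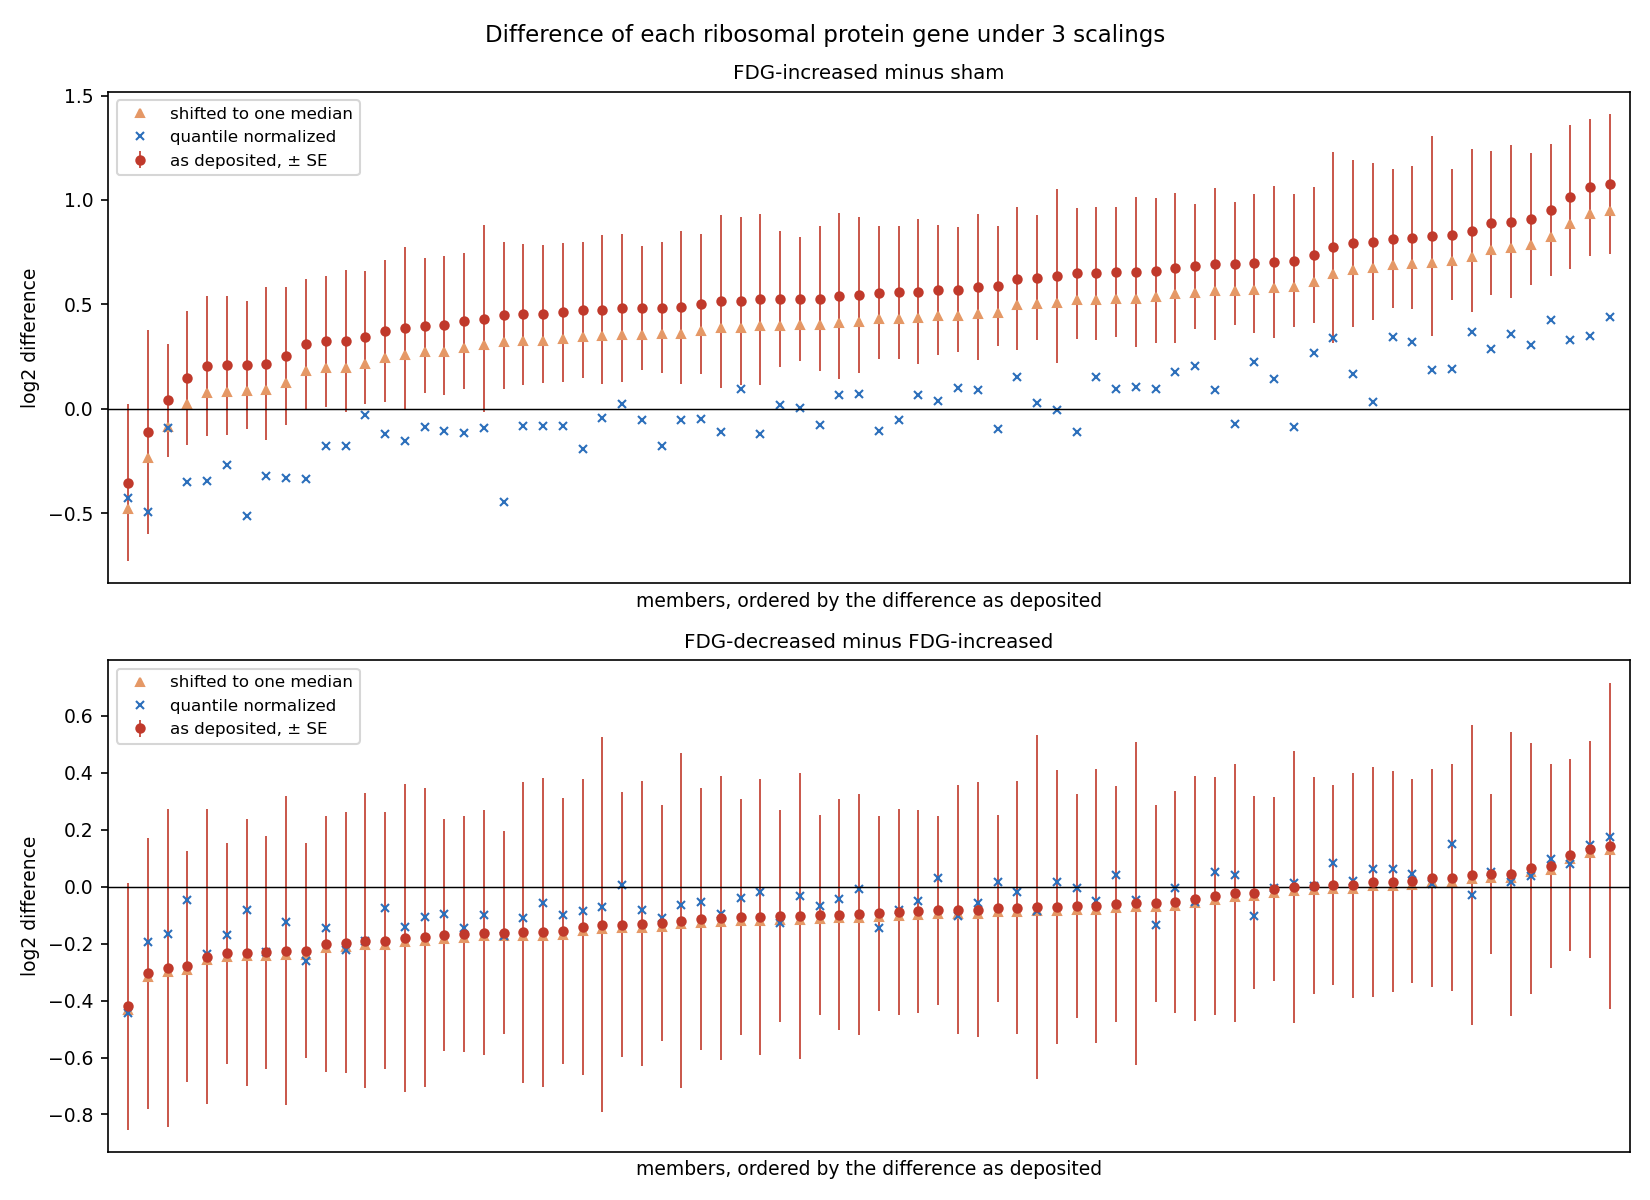
Fitted log2 difference of each of the 76 tested members in the sham table (top) and the RYGB table (bottom), ordered by the difference as deposited; circles with bars are that difference ± SE, without the replicate block, triangles the value after shifting libraries to one median and crosses the value after quantile normalization. In the top panel the circles run from -0.35 to 1.07 and the crosses lie on both sides of 0. In the bottom panel the bars of all genes cross 0.

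The difference went with the level of a gene in the sham table. Among genes that are no members, those at 300 FPKM or more (203 genes) had a median difference of 0.56 and 87.7% of them were higher, against 97.4% of the tested members. Those from 10 to 100 FPKM had a median of 0.19, and those from 1 to 10 FPKM a median of -0.0046. After the median shift the abundant genes had a median of 0.43, against 0.42 for the members. After quantile normalization they had a median of 0.024, against -0.02 for the members. The members' median was thus close to that of other genes of high level. In the RYGB table the abundant non-members (226 genes) had a median of -0.03.

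**Figure D3:**
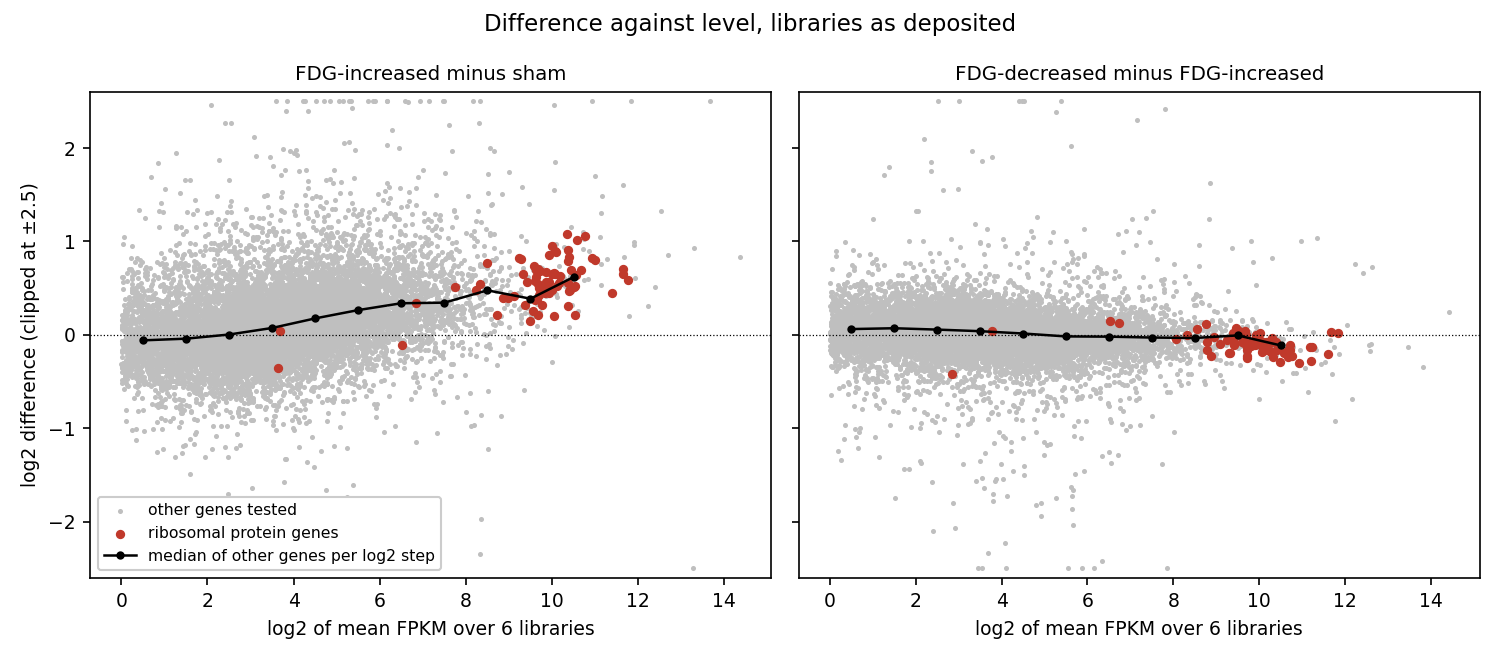
Log2 difference of each gene tested against the log2 of its mean FPKM, in the sham table (left) and the RYGB table (right), libraries as deposited; grey points are other genes, red points ribosomal protein genes, and the black line joins medians of other genes in steps of 1 on the log2 axis that hold at least 20 genes. On the left the line climbs with level and the members scatter around its upper end; on the right it stays near 0.

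Sham library 1 bears on this comparison. Without it, 75 of 76 members had a positive difference (63.7% of all genes) and the median was 0.58. By limma 18 members were higher at an unadjusted p under 0.05 (7.43% of all genes higher) and 0 lower (239 of all genes). The groups did not overlap, with FDG-increased higher, for 46 members (22.5% of all genes). They did not overlap with it lower for 0 members (899 of all genes). Other markers moved with the groups too. The ileum markers Fabp6 and Slc10a2 averaged 10.3 to 11.8 as log2(FPKM + 1) in the FDG-increased libraries and 3.20, 9.56 and 10.2 in the sham libraries. The upper intestine markers Gata4, Gip and Lct averaged 0.295 to 1.03 against 6.76, 3.41 and 0.916, and Gata4 was at 0 in FDG-increased library 2. All 3 Paneth cell markers, both goblet cell markers, 3 of 4 enterocyte markers and 2 of 3 macrophage markers were higher in the FDG-increased libraries. All 3 adipocyte markers and both cycling markers were lower. After quantile normalization 1 of 2 goblet and 1 of 4 enterocyte markers were higher, and the counts of the other cell markers named here were unchanged. None of these passed the test, and their part in the ribosomal protein values was not tested.

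The sham libraries were all run on lane 7, and the labels put FDG-increased replicate 1 on lane 7 and replicates 2 and 3 on lane 4. Which column of the sham table is replicate 1 differs between the tables. With lane 7 alone, taking the column numbered 1, the members' median was 0.56 with 73 of 76 higher. For all genes it was -0.05, with 4887 of 10783 higher. Taking the column that equals replicate 1 of the RYGB table, the members' median was 0.20 with 65 of 76 higher. For all genes it was 0.04, with 5839 of 10787 higher. Each of these values rests on 1 FDG-increased library.

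In FDG-decreased against FDG-increased RYGB ileum, 0 of the 76 members were called by limma, nor was any of the 10739 genes tested (0%), and at an unadjusted p under 0.05 there were 0 members against 39 genes higher (0.363%) and 71 lower (0.661%). The differences were small: 16 members were higher and 60 lower in FDG-decreased ileum (44.8% of all genes lower), with a median of -0.10 against 0.02 for all genes. No member separated the groups in either direction as deposited (1.95% of all genes higher, 1.26% lower). After the median shift 13 were higher and 63 lower (47.9% of all genes) with a median of -0.11, and after quantile normalization 23 higher and 53 lower (47.8% of all genes) with a median of -0.05. The groups of 1 member, Rpl32, then stood apart, with FDG-decreased lower (198 of all genes). After shifting to one upper quartile this also held for 1 member (140 of all genes).

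Rps4y2 had the most negative difference here as in the other table. It was at 9.25, 5.79 and 3.19 FPKM in the FDG-decreased libraries and at 12.7, 7.73 and 4.85 FPKM in the FDG-increased libraries. The groups overlapped, but each FDG-decreased library was below the FDG-increased library of the same number. The difference was -0.42 (SE 0.43). With the replicate number as a block it had an SE of 0.15, an unadjusted p of 0.0196 and a limma adjusted p of 0.353.

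Rps26 was at 2112, 1983 and 1071 FPKM in FDG-decreased ileum and at 2091, 3115 and 1297 FPKM in FDG-increased ileum, a difference of -0.30 (SE 0.48). Rpl35 was at 1717, 1393 and 686 FPKM against 1749.7, 2286.5 and 744 FPKM, a difference of -0.29 (SE 0.56). For both genes the gap was widest between the libraries numbered 2. Rpl37a followed with -0.28 (SE 0.40) and Rpl17 with -0.25 (SE 0.52). The most positive differences were 0.14 (SE 0.57) for Rpl22l1, 0.13 (SE 0.38) for Rps27l, 0.11 (SE 0.34) for Rps10, 0.07 (SE 0.36) for Rps14 and 0.06 (SE 0.44) for Rpl36a. These SEs are from the fit without pairs. With the replicate number as a block the SE was 0.16 for Rps26, Rpl35 and Rpl37a and 0.14 for Rpl17, with limma adjusted p-values of 0.619, 0.679, 0.676 and 0.691.

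Among the other members of set roles, Rplp0 was at 1374, 1099 and 1102 FPKM against 1271, 1228 and 1267 FPKM, a difference of -0.08 (SE 0.33). Rplp1 gave 0.02 (SE 0.39), Rpsa -0.10 (SE 0.35), Rpl5 -0.07 (SE 0.48), Rpl11 -0.07 (SE 0.48) and Rps27a -0.11 (SE 0.49). Fau gave -0.04 (SE 0.37). By role, the median was -0.10 both for the 41 large-subunit genes, 34 of them lower, and for the 28 small-subunit genes, 24 of them lower.

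Markers of other intestinal regions and cells also differed between these libraries. All 3 upper intestine markers (Gata4, Gip and Lct) were higher in FDG-decreased ileum, with a mean of 2.14 to 3.28 as log2(FPKM + 1) against 0.289 to 0.835, and 2 of them were called with the replicate block. All 4 enterocyte markers were higher, 1 of them called with the block, and both ileum markers and all 3 macrophage markers were lower without a call. After quantile normalization 1 of the 2 ileum markers was higher. Their part in the ribosomal protein values was not tested.

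Libraries of the same number deviated together in the RYGB table, so the pairs were also read one by one. In pair 1 the members' median was 0.08 higher in the FDG-decreased library, with 16 of 76 members lower. In pair 2 it was -0.29, with 68 lower, and in pair 3 it was -0.10, with 49 lower. After the median shift the pairs gave 0.13, -0.26 and -0.22, with 7, 66 and 64 members lower. Pair 1 thus went the other way from the rest. Higher in all 3 pairs were 0 of the 76 members, against 1842 of all genes (17.2%). Lower in all 3 pairs were 8 of the 76 members (10.5%), against 12.7% of all genes: Rpl5, Rpl32, Rpl35, Rpl38, Rps3a, Rps4x, Rps4y2 and Rps18, which were named after their values were seen. With the replicate number as a block, limma called 122 of the 10739 genes (1.14%) and 0 of the members.

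The sign of that small lower median depended on single libraries. Without FDG-decreased replicate 3 it was 0.10, and without FDG-increased replicate 2 it was 0.16. The median of all genes was 0.10 and 0.17 in the same fits, close to that of the members. After the median shift these fits gave members' medians of 0.022 and 0.011. Over the 6 libraries left out in turn the members' median ran from -0.31 to 0.16, and after the shift from -0.20 to 0.022.

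Set against the total, the summed FPKM of the members gives a share that needs no scaling between libraries. In the sham table it was 15.5%, 12.6% and 13.8% in the FDG-increased libraries (13.96% ± 1.45, SD, n = 3) and 11.8%, 13.5% and 11.7% in the sham libraries (12.3% ± 1.00, SD, n = 3). The groups overlapped. In the RYGB table it was 13.3%, 11.6% and 11.95% in FDG-decreased ileum (12.3% ± 0.863, SD, n = 3) and 12.6%, 13.8% and 12.4% in FDG-increased ileum (12.9% ± 0.762, SD, n = 3), again with overlap. The highest share was that of FDG-increased library 1 of the sham table, the FDG-increased library of that table which the RYGB table does not hold. A share also moves with the other genes in the sum. Fabp6 was at 16503, 18963 and 22955 FPKM in the FDG-increased libraries of the sham table and at 22.6, 8375 and 11347 FPKM in its sham libraries. The part of such genes in the shares was not tested.

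The members' mean log2(FPKM + 1) moved between 9.16 and 10.20 over the libraries of the sham table and between 9.20 and 10.17 over those of the RYGB table. The members also varied around that shared mean. Deviations were taken from the mean of the members in each library, for members with a mean of at least 10 FPKM (75 in the sham table, 74 in the RYGB table), and centred for each gene. Their median SD over libraries was 0.24 and 0.25 on the log2 scale. With libraries shifted to one median instead, the median SD was 0.34 for the members and 0.37 for all genes at 10 FPKM or more in the sham table, and 0.30 and 0.38 in the RYGB table. Among the steadiest members were Rps25, Rpl22, Rpl38 and Rpl12 in the sham table and Rpl27, Rpl32, Rpl13a and Rpl24 in the RYGB table.

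The most variable were Rps4y2, Rpl22l1, Rps15, Rps21 and Rpl36 in the sham table and Rpl22l1, Rpl36, Rps15, Rpl30 and Rps24 in the RYGB table. Relative to the other members, Rpl36 of the large subunit covered a 2.97-fold range in the RYGB table, with deviations of 0.86, -0.71 and -0.11 in FDG-decreased libraries 1, 2 and 3 and 0.76 in FDG-increased library 1. Rps15, of the small subunit, deviated by 0.81, -0.73 and 0.12 in the FDG-decreased libraries and by 0.71 in FDG-increased library 1. In FDG-increased libraries 2 and 3 Rpl36 deviated by -0.29 and -0.52 and Rps15 by -0.47 and -0.44. Both were thus high in the libraries numbered 1 and low in those numbered 2, and also low in FDG-increased library 3.

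Rps24, whose mutation in humans causes a form of Diamond-Blackfan anaemia, showed the opposite in the libraries numbered 1 and 2. It deviated by -0.33, 0.72 and -0.45 in the FDG-decreased libraries and by -0.43, 0.63 and -0.14 in the FDG-increased libraries. Rpl30 deviated by -0.69 and 0.70 in FDG-decreased libraries 1 and 2 and by -0.60, 0.30 and 0.34 in the FDG-increased libraries. Across the 74 members, deviations of same-numbered FDG-decreased and FDG-increased libraries correlated at 0.953, 0.731 and 0.610 (Pearson, across genes of 2 libraries, given as a description since the genes share library and scaling). Between libraries of other numbers, in the same or the other group, they correlated at -0.805 to 0.195, in part because the deviations of a gene sum to 0. By the labels, both libraries numbered 1 in this table came from lane 7 and both numbered 2 from lane 4, so number and lane cannot be told apart for these 2 pairs. The libraries numbered 3, which correlated at 0.610, came from lanes 5 and 4. FDG-increased library 3, from lane 4, correlated at -0.329 with FDG-increased library 2 and at 0.195 with FDG-decreased library 2, both also from lane 4. The part of the lane was not tested.

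**Figure D4:**
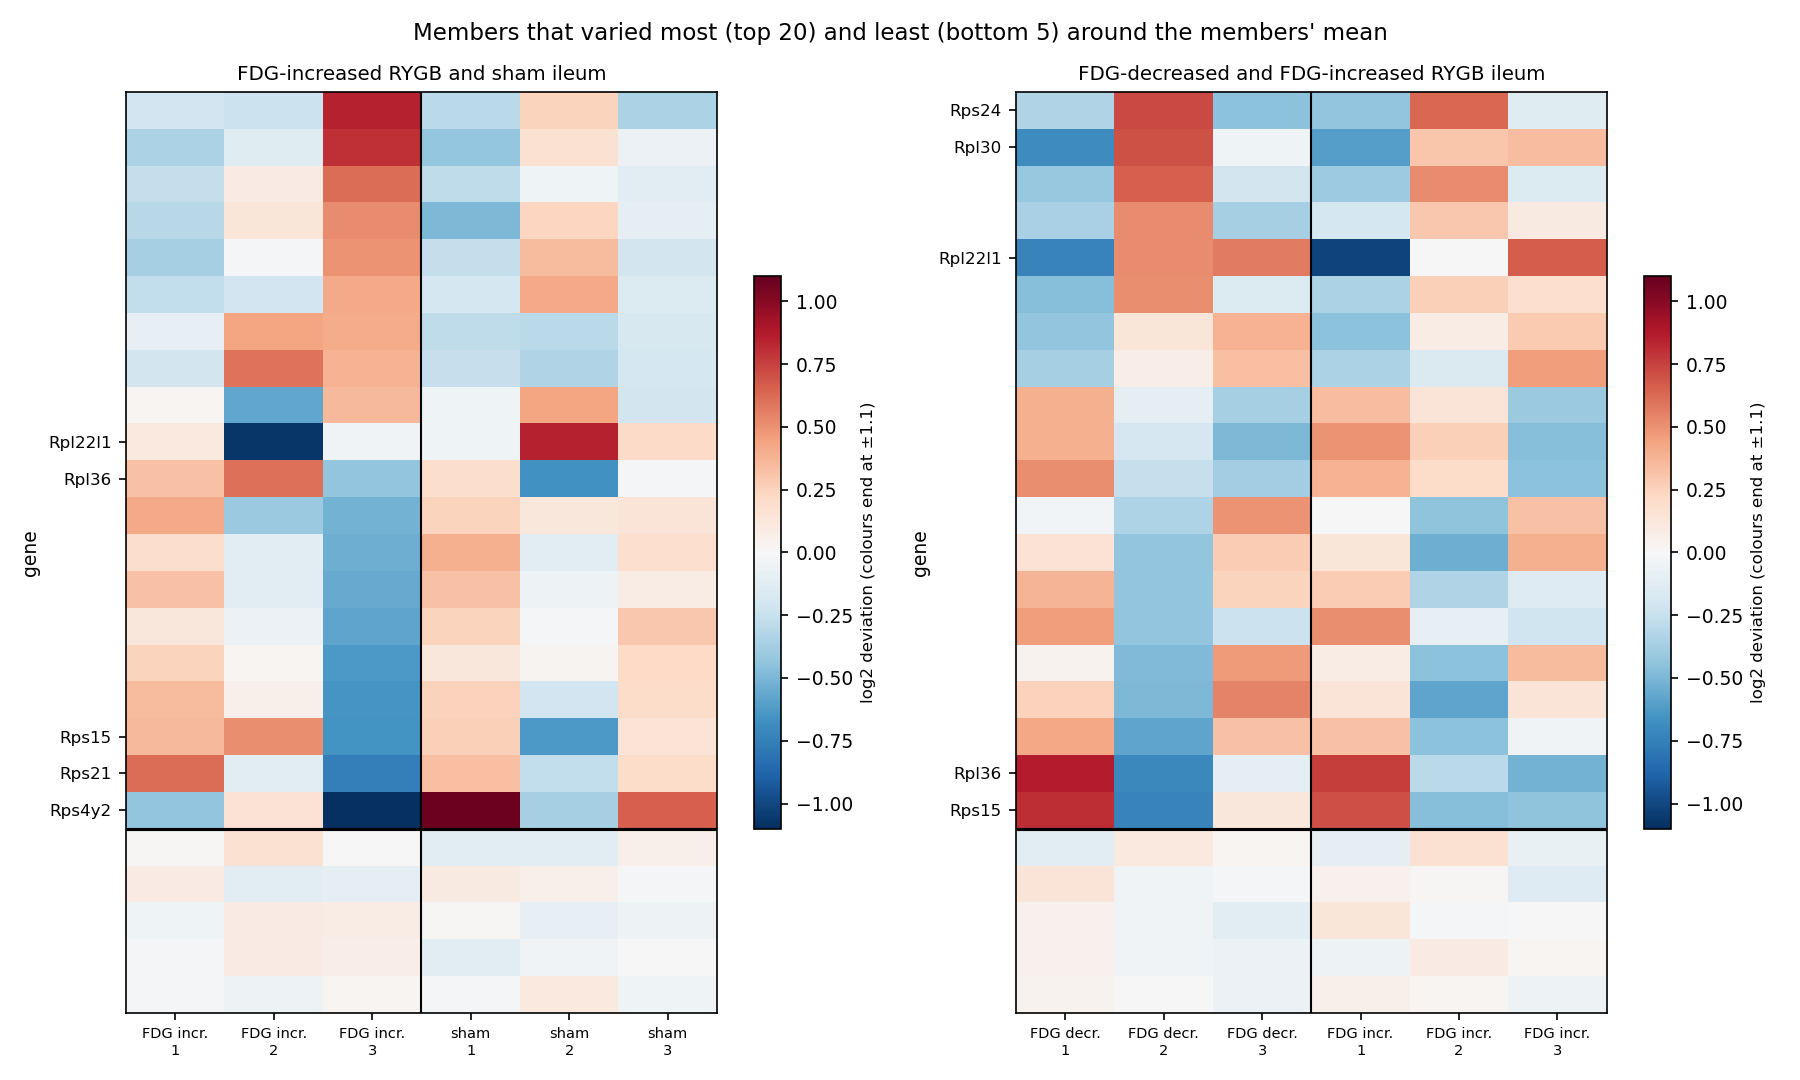
Deviation of single members from the members' mean in each library (log2, centred per gene; red above, blue below), for the 20 most variable and, under the thick line, the 5 least variable members of the sham table (left) and the RYGB table (right); each row is a gene, and the 5 most variable of each table carry their names. On the right, columns with the same number look alike across the vertical line that divides the groups, as for Rps15 and Rpl36, high in the libraries numbered 1.

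Paralogue pairs were read as the level of one gene in percent of the other within a library. Rpl22l1 stood at 6.01% to 26.2% of Rpl22 over both tables. In the RYGB table it was 7.19%, 21.0% and 25.02% in FDG-decreased and 6.01%, 12.6% and 24.5% in FDG-increased ileum, so libraries numbered 1 were lowest in both groups. In the sham table it was 15.2%, 6.01% and 12.6% in FDG-increased and 13.1%, 26.2% and 16.4% in sham ileum, with overlap. Rps27l, a p53-inducible relative of Rps27, stood at 3.69% to 8.46% of Rps27.

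Rps4y2 stood at 0.271% to 0.955% of Rps4x in the FDG-increased libraries of the sham table and at 0.494% to 2.22% in the sham libraries. Rpl36al and Rpl36a were of like level, with Rpl36al at 62.2% to 155% of Rpl36a. Rpl3l was at most 0.0297% of Rpl3 in any library, and no ratio was formed for Rpl39l, listed at 0 in 11 of 12 columns. The groups overlapped for Rps27l, Rps4y2 and Rpl36al in both tables.

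**Figure D5:**
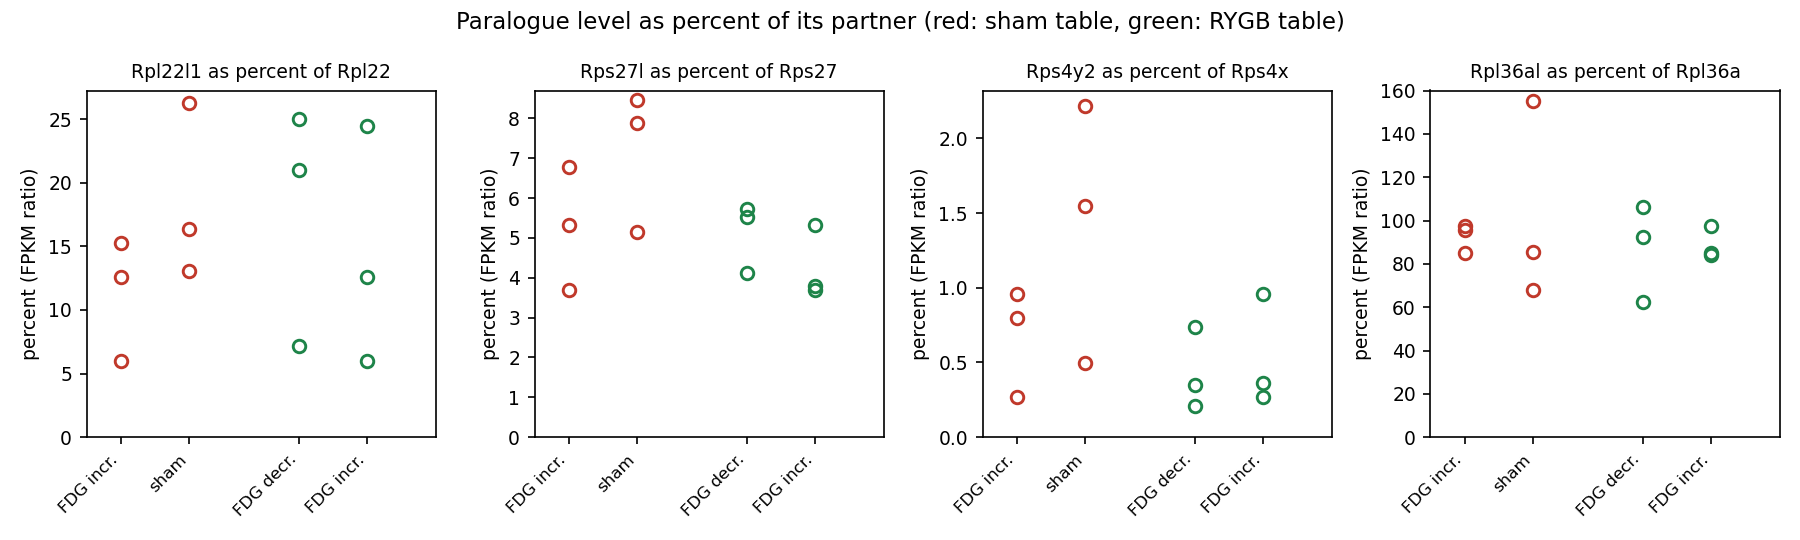
Level of a paralogue in percent of its partner in every library, by group, for 4 pairs; red circles are libraries of the sham table and green circles of the RYGB table, and each group holds 3 circles. Rpl22l1 ranges from 6.01% to 26.2% of Rpl22, and the groups overlap in each panel.

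Other genes of the translation machinery were read from fixed lists, none with a called gene in either table. Of all genes tested, 64.7% were higher in FDG-increased than in sham ileum, and of non-members at 100 FPKM or more 86.4% were. Of 19 tested translation factors and other mRNAs known for a TOP tract, 17 were higher in FDG-increased than in sham ileum, with a median of 0.39 (0.26 after the median shift, -0.01 after quantile normalization). Their largest differences were those of Tpt1 at 0.76 (SE 0.40), Eif4a2 at 0.74 (SE 0.49) and Naca at 0.69 (SE 0.31). Of 66 mitochondrial ribosomal proteins, which form a separate ribosome, 51 were higher, with a median of 0.21 (0.08 after the shift, -0.0018 after quantile normalization). Of 27 genes of ribosome biogenesis and RNA polymerase I, 13 were higher and 14 lower, with a median of -0.03. After the median shift 6 were higher, with a median of -0.15, and after quantile normalization 7, with a median of -0.17. As deposited, the groups did not overlap for 6 of these 27 with FDG-increased lower (4.44% of all genes) and for 2 with it higher (10.7% of all genes). The 3 largest differences by size were positive: Nop10 gave 0.98 (SE 0.50), Eif6 0.76 (SE 0.39) and Sbds 0.68 (SE 0.30).

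Of 19 genes of the mTORC1 pathway and its targets, 10 were higher (64.7% of all genes), with a median of 0.02 (-0.11 after the median shift). The largest difference was -0.97 (SE 0.34) for Ddit4, an inhibitor of mTORC1, with a limma adjusted p of 0.563. Of 8 tested genes of the Myc network 5 were higher (64.7% of all genes), with a median of 0.34. After quantile normalization 4 were higher, with a median of 0.04. Max gave 0.67 (SE 0.37). The 3 lower genes were Myc at -0.30 (SE 0.31), Mycl at -0.42 (SE 0.32) and Mnt at -0.35 (SE 0.25). Of 6 genes of the p53 checkpoint 4 were higher (64.7% of all genes), with a median of 0.10 (-0.03 after the median shift). Mdm2 gave 0.70 (SE 0.30). In FDG-decreased against FDG-increased ileum the medians of these lists lay between -0.02 for the TOP mRNAs and 0.10 for the mTORC1 pathway, and 0 genes of them were called, with or without the replicate block. The largest differences there were -0.59 (SE 0.30) for Cdkn1a and -0.54 (SE 0.41) for Mxd1.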

How the data were processed

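The 9 libraries in 3 groups of 3 are total RNA of OLETF rat ileum. The deposited files are 2 tables of FPKM values, which the authors scaled separately; bcl2fastq 1.8.4, STAR 2.6.0a, Cufflinks 2.2.1, Cuffdiff and DESeq2 1.24.0 are named in the submitters' processing notes, and the build listed there is hg19, a human build, although the symbols are those of rat. Settings are not given in the sources used here. Samples were grouped by their titles. FDG-increased columns of the sham table carry their group alone and no sample, because their numbers and those of the RYGB table conflict; 0 columns were left unused.

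Rows whose symbol had become a date (25 in each table) were not used. Values were taken as log2(FPKM + 1), which understates differences of low genes, and a gene was kept where its mean over a table's 6 libraries reached 1 FPKM: 10801 genes in the sham table and 10739 in the RYGB table. Groups were compared within each table by limma 3.58.1 (R 4.3.3), with robust empirical Bayes variances that follow an intensity trend, Benjamini-Hochberg adjustment over all genes tested and a threshold of 0.05; the script was tested on simulated data. FPKM carries no counts, so depth and counting error are unknown. Libraries were also shifted to one median, quantile normalized, shifted to one upper quartile, fitted with another pseudocount or filter, with the replicate number as a block, and with each library left out. In the RYGB table the correlations across genes of the deviations of same-numbered libraries were 0.85, 0.76 and 0.77, so the numbers, from the labels, were taken to pair the libraries; in the sham table they were 0.35, -0.50 and -0.25 and were not.

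Members named are the 5 with the highest and the 5 with the lowest difference in each table, the 5 most abundant, and the 5 most and 5 least variable. The stalk genes, Rpsa, Rps6, Rpl5, Rpl11, Rps27a, the paralogue pairs and Rps19bp1 are also named. Of other lists, at most 3 genes with the largest differences are named, and the 3 lower genes of the Myc network. Some genes that this rule would name are not reported here. The members and lists were chosen with earlier results of these data known. Promoter sequences and gene copies are from RefSeq (GRCr8); 82 of the 84 member symbols are in its gene table. Protein sequences were not used here.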

Additional observations from a re-analysis of the deposited data

How the results depend on the processing

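0 ribosomal protein genes were called under each setting run in either table. In FDG-increased minus sham, the members' median moved from 0.55 to -0.019 with quantile normalization, to 0.29 with the upper quartile shift and to 0.20 with lane 7 alone under the second numbering; left out in turn, libraries gave 0.42 to 0.71 as deposited and 0.34 to 0.55 when also shifted to one median. Genes called in all went from 4 to 1 (median shift), 0 (quantile), 2 (upper quartile), 1 (pseudocount 0.1), 0 (no filter) and 0 (lane 7 alone, first numbering), and to 0 to 13 with libraries left out as deposited. The replicate block gave 39, or 28 with the median shift, in a table where the numbers do not pair the libraries. In FDG-decreased minus FDG-increased, the block gave 122 genes in all, or 101 with the median shift, against 0. Libraries left out gave 0 to 1 genes, or 0 to 3 when also shifted to one median. Members' medians were then -0.31 to 0.16 as deposited and -0.20 to 0.022 when also shifted. The block changed no member's call. The cause of these changes was not tested.

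Among the 5 highest and 5 lowest members of FDG-increased minus sham, directions turned for Rps19bp1 (-0.087 with the median shift, with or without the block, -0.092 with quantile normalization, -0.22 with the upper quartile, -0.32 and -0.0010 with lane 7 alone), Rpl3 (-0.35 quantile, -0.11 upper quartile, -0.24 lane 7), Rps23 (-0.35, -0.056 and -0.28) and Rpl22l1 (0.33, lane 7). Quantile normalization also turned other members named in the report: in FDG-increased minus sham Rpl13a (-0.11), Rpl30 (-0.091), Rpl32 (-0.18), Rpl37a (-0.44), Rpl38 (-0.19), Rpl41 (-0.11), Rplp0 (-0.34), Rplp1 (-0.099), Rps10 (-0.11), Rps14 (-0.32), Rps2 (-0.52), Rps21 (-0.16), Rps27a (-0.12), Rps27l (-0.032), Rps29 (-0.088), Rps3a (-0.11), Rps4x (-0.0066) and Rpsa (-0.055), and in FDG-decreased minus FDG-increased Rpl13a (0.051), Rpl5 (0.016), Rplp0 (0.03), Rps15 (-0.027), Rps2 (0.018) and Rps27 (0.0045). The median shift turned Rpl36al there (-0.011). With libraries left out, as deposited or shifted, the ranges were -0.16 to 0.22 for Rps19bp1, -0.19 to 0.35 for Rpl3, -0.099 to 0.44 for Rps23, -0.55 to 0.41 for Rpl22l1 and -0.85 to 0.0061 for Rps4y2. In FDG-decreased minus FDG-increased they were -0.63 to 0.0072 for Rps26, -0.76 to 0.10 for Rpl35, -0.59 to 0.18 for Rpl17, -0.21 to 0.38 for Rpl36a, -0.10 to 0.20 for Rps14, -0.059 to 0.35 for Rps10, -0.11 to 0.38 for Rps27l and -0.36 to 0.54 for Rpl22l1. Lane 7 alone was not run in the RYGB table, where it leaves 1 library per group and no residual degrees of freedom. Where a group was left with 1 library, it was assumed to vary like the other group. Depth is unknown, so what limits the low values could not be computed.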
